A study of Mus musculus with 35 samples.

Results

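To describe the state that GATA6 had produced after 48 h, the 3 RNA-seq libraries taken after 48 h of doxycycline (Dox) were compared with the 3 libraries of untreated (0 h) ES cells, 6 of the 35 libraries of the series. Members were chosen by their labels and not by any measured value. Of 44853 genes in the table of the induction series, the 13766 whose mean reached 1 TPM at 0 h or at 48 h were tested. TPM corrects for gene length and sums to the same total in each library. Just inside that minimum stood Irgm1, with 0 h and 48 h means of 1.00 and 0.443 TPM, and just outside it Gm12263, with 0.288 and 0.999 TPM.

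The cells were KH2 mouse ES cells of C57BL/6 x 129/Sv background, in which a Dox-responsive cassette drives gata6. They were grown in serum with LIF on mitotically inactivated embryonic fibroblast feeders, which were removed by adsorption before lysis. Dox was given at 1 µg/mL for 48 h, and the 0 h cells carried the same cassette without Dox. The study derived 2 clones, G6.1 and G6.3, and the labels do not say which of them gave each library, so the libraries of a group may differ by clone. XEN cells, of the wild-type CD1 line X10 and thus of another strain, served as a reference for primitive endoderm (PrE) with 2 libraries. The 6 libraries of a separate table, taken after 48 h of Dox with a control siRNA (siCTL), are set beside the comparison as levels only. Per the study's methods, that siRNA was given by nucleofection to cells of clone G6.3.

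PrE is the epithelium that segregates from the pluripotent epiblast in the blastocyst and later forms the visceral and parietal endoderm of the yolk sac. GATA6 is the zinc finger factor at the head of its gene network, followed by SOX17 and GATA4, while NANOG opposes it in the epiblast. FGF4 secreted by epiblast cells and read by FGF receptors favours the PrE fate, and the PrE lays down a basement membrane of type IV collagen and laminin against the epiblast.

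After 48 h, the PrE programme was on at high levels. Pou5f1, which encodes the pluripotency factor Oct4, still averaged 1169 TPM, 70.7% of its 0 h mean. In all, 1376 genes were higher at 48 h, 10% of the genes tested, and 1095 were lower, 7.95%, at an adjusted p-value under 0.05 and a log2 change above 1 in size. Together they made 18.0% of the genes tested. The log2 change is on log2(TPM + 1), which understates the change of genes at low levels. Adjusted p-values are limma's with Benjamini-Hochberg correction over all 13766 genes, and the fit took its spread from all 23 libraries of the induction series. Genes that were higher made up 2.37% ± 0.0363 of all transcripts before Dox and 8.50% ± 0.539 after it (SD, n = 3 each). Genes that were lower made up 4.83% ± 0.0606 before Dox and 1.57% ± 0.104 after it (SD, n = 3 each). The median log2 change was 1.44 among the former and -1.39 among the latter, and it was -0.01 over all genes tested. Both sets were chosen by their change in these libraries, so the direction of these shares and medians was fixed by the choice. Changes were more extended on the upper side, where 326 genes passed 2 and 55 passed 4 on the log2 scale, against 231 and 6 on the lower side. Of the higher genes, 330 (24.0%) had been under 1 TPM at 0 h, and of the lower genes 307 (28.0%) were under 1 TPM at 48 h. LincRNAs made up 59 of the lower and 11 of the higher genes, and their share among all genes tested was not counted.

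**Figure D1:**
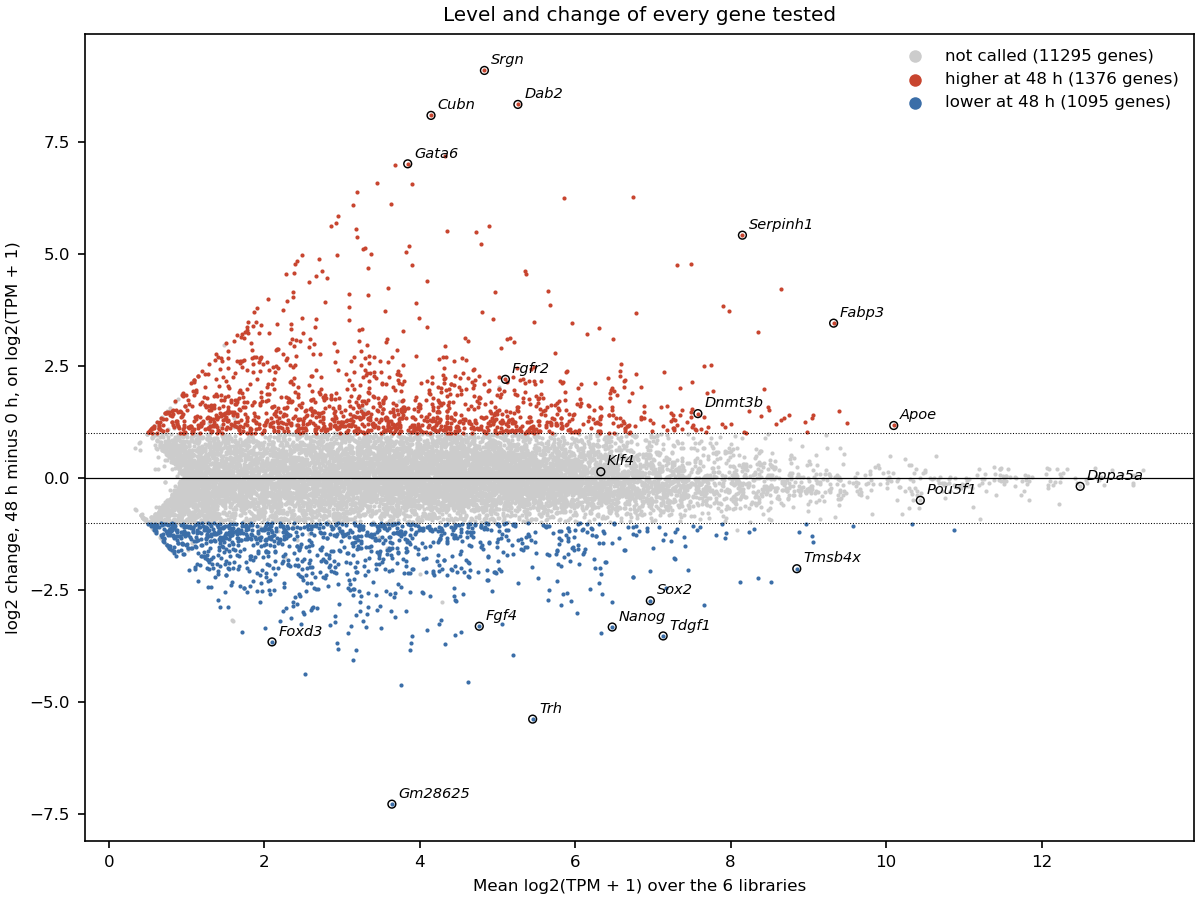
Mean log2(TPM + 1) over the 6 libraries (horizontal axis) against the log2 change from 0 h to 48 h of Dox (vertical axis) for each of the 13766 genes tested, with dotted lines at the fold minimum and named genes circled. Red points are the 1376 genes called higher and blue points the 1095 called lower; Pou5f1 and Dppa5a sit at the right, between the dotted lines, and Srgn, Dab2 and Cubn at the top.

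The 6 libraries were alike in complexity, with 12780 to 13037 genes at 1 TPM or more. Pearson correlations across genes, which are not independent replicates, were 0.983 to 0.988 among the 0 h libraries and 0.986 to 0.990 among the 48 h libraries, and within each group replicates 1 and 2 were the closest pair. At 48 h, replicate 3 differed from the other 2. It was the lowest of the 3 libraries for 873 of the 1376 higher genes (63.4%) and the highest for 518 of the 1095 lower genes (47.3%). Its median-of-ratios size factor was 0.965, against 1.01 and 1.02 in replicates 1 and 2. How often it was lowest or highest over all genes tested was not counted, and why it differed was not tested. Without replicate 3 of both groups, 1426 genes were higher and 1213 lower. The feeder list, 12 fibroblast markers of which 9 were tested, summed to 98.5, 71.7 and 167.6 TPM in the 0 h libraries and to 102.3, 98.9 and 140.8 TPM in the 48 h libraries. None of the 9 was called and none had groups that did not overlap, while over all genes tested 65.1% did not overlap. These are bulk samples, in which fewer cells of a type and less RNA per cell cannot be told apart, nor can it be seen whether the same cells hold the transcripts of both programmes.

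All 8 PrE transcription factors listed were higher at 48 h, with a median log2 change of 6.15. None of their 0 h libraries reached 1 TPM. Dox drives Gata6 itself from the cassette, so its rise was set by the design. This list and the later ones were chosen with earlier results of these data known, so their counts describe and do not test. Gata6 was at 0.193, 0.223 and 0.375 TPM in the 0 h libraries and at 177.4, 173.4 and 140.4 TPM in the 48 h libraries. Its log2 change was 7.02 ± 0.09 (SE; adjusted p = 4.95e-21 by limma), and the 48 h mean was 47.3% of that in XEN cells. The 2 groups lay far apart, and reads of the endogenous gene and of the cassette are counted together. Gata4, which encodes a second GATA factor of endoderm, went from 0.599, 0.954 and 0.436 TPM to 247.9, 251.3 and 225.8 TPM, a log2 change of 7.20 ± 0.12 (SE; adjusted p = 6.22e-19 by limma). At 70.8% of its XEN mean it was the closest to XEN cells of the 5 listed factors that had a lower mean there than in XEN cells. Sox17, for an HMG box factor required for endoderm, reached 135.4, 166.6 and 130.7 TPM from 0.172 TPM or less. Its log2 change was 6.99 ± 0.18 (SE; adjusted p = 5.20e-16 by limma).

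Factors of the forkhead family lay on both sides of the XEN level. Foxq1 was at 104.5, 114.7 and 99.8 TPM at 48 h, 365.1% of its XEN mean. It was called higher than in XEN cells, with a log2 difference of 1.83 ± 0.15 (SE; adjusted p = 4.24e-09 by limma). Foxa2, by contrast, was at 20.8, 26.2 and 16.3 TPM, 26.4% of the XEN mean. Hnf4a, for a nuclear receptor of endoderm, was at 19.9, 21.9 and 8.64 TPM, so that replicate 3 held less than the other two, and its log2 change was 4.0 ± 0.29 (SE; adjusted p = 8.21e-10 by limma). In each of the 8 factors, replicate 3 was the lowest of the 48 h libraries.

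Among 12 genes for PrE receptors, signals and surface proteins, 10 were tested, of which 8 were higher and 1 was lower, with a median log2 change of 3.88. Dab2, an endocytic adaptor for lipoprotein receptors, was at 0.985, 1.24 and 1.17 TPM at 0 h and at 793.9, 855.1 and 488.8 TPM at 48 h. It was 630.5-fold higher on average (log2 change 8.35 ± 0.23 SE; adjusted p = 8.86e-16 by limma) and was 274.1% of its XEN mean. Pdgfra, the receptor used as a surface marker of PrE, reached 150.3, 155.3 and 129.2 TPM from 1.00 TPM or less. Podxl, a sialomucin of the apical surface, went from 7.27 ± 1.03 to 202.1 ± 10.8 TPM (SD, n = 3 each; 27.8-fold), and the water channel gene Aqp8 from 0.0338 ± 0.0586 to 50.4 ± 5.55 TPM (SD, n = 3 each). These genes separated the groups in every library, as did 65.1% of all genes tested.

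Pth1r, the receptor for parathyroid hormone-related protein and a marker of parietal endoderm, was part of the way to its XEN level. It was at 2.50, 2.36 and 0.994 TPM at 0 h and 85.0, 96.8 and 54.0 TPM at 48 h, which was 40.3-fold higher and 16.0% of the XEN mean. Between 24 h and 48 h alone it increased by 3.81 ± 0.22 on the log2 scale (SE; adjusted p = 1.27e-09 by limma). Follistatin (Fst), an activin antagonist, was at 8.91, 4.72 and 7.79 TPM at 0 h and 5.34, 5.18 and 4.72 TPM at 48 h, against 510.0 ± 15.1 TPM in XEN cells (SD, n = 2). Its 0 h and 48 h libraries overlapped, and the difference was not called (adjusted p = 0.263 by limma). Ptch1, the Hedgehog receptor, fell by 1.21 ± 0.21 on the log2 scale (SE; adjusted p = 6.75e-05 by limma), while the ligand gene Ihh rose from 0.129 ± 0.0775 to 8.95 ± 1.57 TPM (SD, n = 3 each). The call of Ptch1 rested on 0 h replicates 1 and 2, at 49.2 and 46.9 TPM, since replicate 3 was at 20.3 TPM, and its change was -0.99 without 0 h replicate 1.

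**Figure D2:**
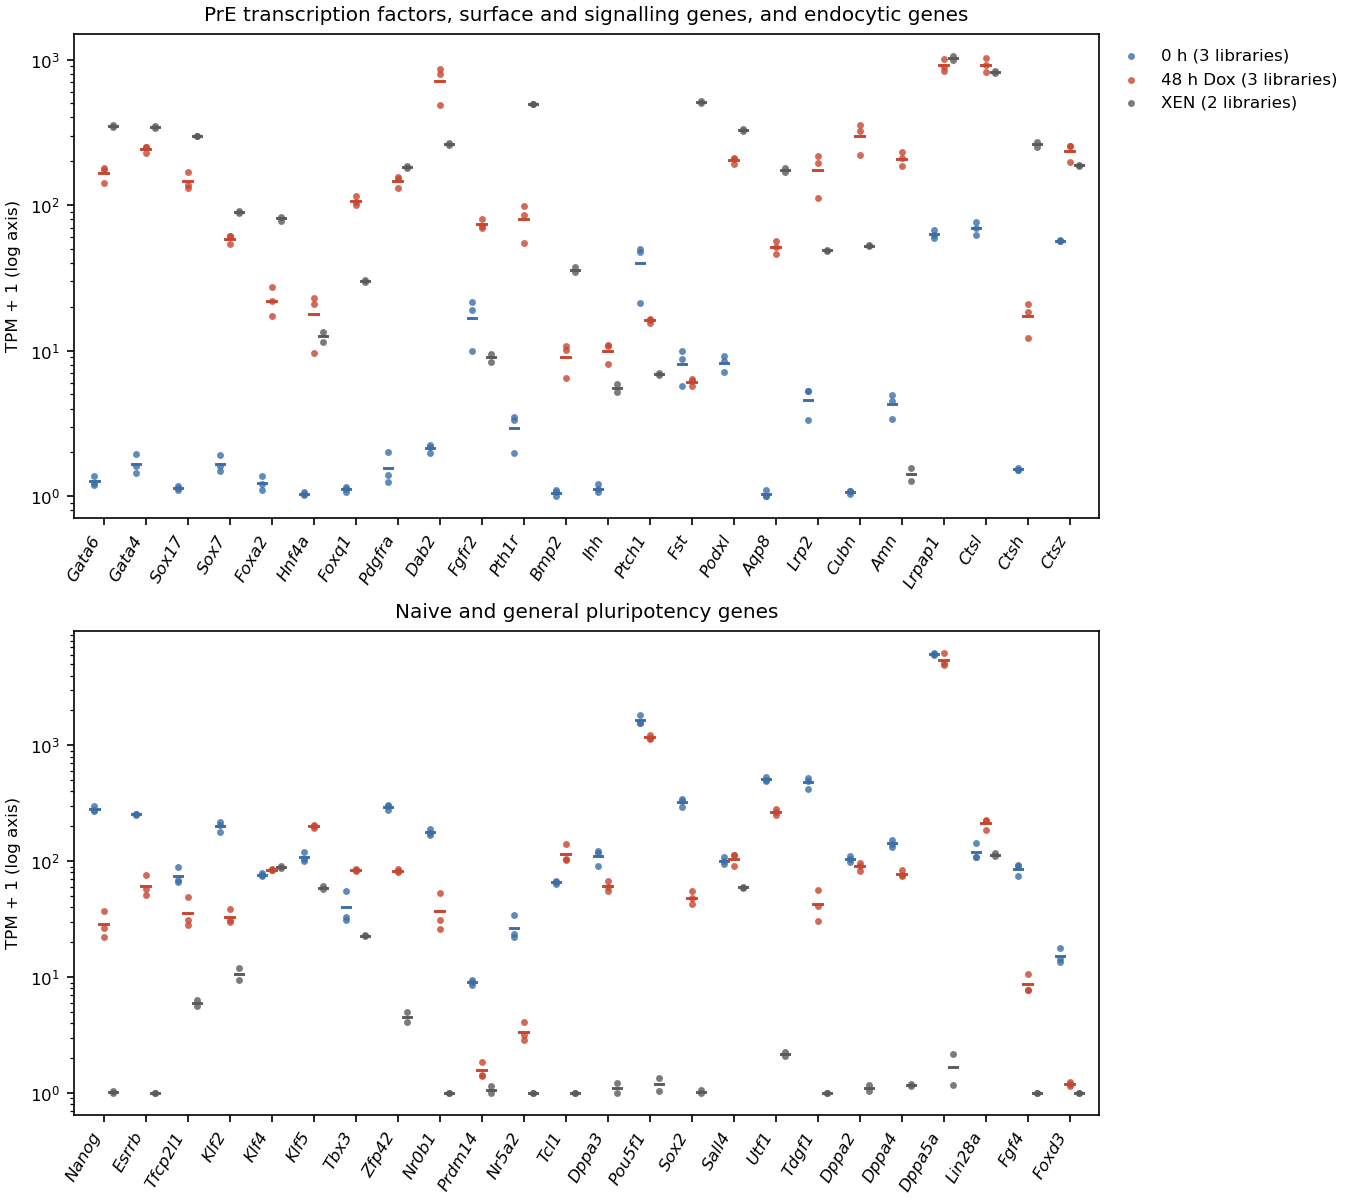
TPM + 1 on a log axis in each library at 0 h (blue, 3 libraries), after 48 h of Dox (red, 3 libraries) and in XEN cells (grey, 2 libraries), with bars at the group means. The upper panel holds 7 PrE transcription factors, surface and signalling genes and endocytic genes, and the lower panel pluripotency genes, where the red points of Pou5f1, Klf4, Sall4 and Dppa5a lie near the blue ones and those of Nanog, Sox2 and Foxd3 far beneath.

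The endocytic machinery of visceral endoderm, with which that tissue takes up maternal proteins and lipids, was higher in 8 of 8 genes, with a median log2 change of 4.54. Cubn, which encodes the receptor cubilin, was at 0.0812, 0.0812 and 0.0406 TPM at 0 h and at 320.2, 353.8 and 220.8 TPM at 48 h (log2 change 8.10 ± 0.27 SE; adjusted p = 1.54e-14 by limma). Its partner Amn, for the anchoring protein amnionless, went from 3.27 ± 0.785 to 207.6 ± 23.5 TPM (SD, n = 3 each; 63.5-fold), and Lrp2, for the receptor megalin, from 3.61 ± 1.12 to 174.0 ± 55.4 TPM (SD, n = 3 each; 48.2-fold). The 3 genes were called higher than in XEN cells: Cubn stood at 579.0% and Lrp2 at 362.6% of the XEN mean, and Amn was at 0.410 ± 0.207 TPM in XEN cells (SD, n = 2). Cubn had been at 8.96 TPM at 24 h, so most of its rise fell in the second day. Lrpap1, a chaperone of these receptors, reached 911.1 ± 91.3 TPM and the lysosomal protease gene Ctsl 921.4 ± 101.2 TPM (SD, n = 3 each), 14.6-fold and 13.5-fold over 0 h. Ctsh, for another cathepsin, was the exception in level, at 20.0, 17.4 and 11.1 TPM or 6.22% of the XEN mean. Replicate 3 was again the lowest 48 h library for each of the 8 genes.

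Genes for the secreted products of visceral endoderm were mixed at 48 h. Of 11 such genes, 5 stayed under 1 TPM in both groups, among them Afp, Ttr and Alb, which encode alpha-fetoprotein, transthyretin and albumin. Of the 6 tested, Apoe was higher, Apoa2 and Trf were lower and 3 were not called, with a median log2 change of -0.00. Apoe, a lipid carrier, was at 791.9, 724.9 and 673.8 TPM at 0 h and 1462, 1464 and 2086 TPM at 48 h, a log2 change of 1.18 ± 0.33 (SE; adjusted p = 0.00489 by limma). Replicate 3 was the highest there, and without replicate 3 of both groups the change was 0.95 with an adjusted p of 0.0600 by limma. Apoa2 went from 34.7, 28.3 and 16.3 TPM to 1.28, 3.35 and 2.13 TPM.

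Markers of the later endoderm lineages were mixed. In the list of anterior visceral and definitive endoderm genes, 4 of 9 were under 1 TPM in both groups, and 3 of the other 5 were higher. Dkk1, a secreted WNT antagonist, reached 76.4, 89.1 and 55.2 TPM from at most 0.132 TPM, with a log2 change of 6.09 ± 0.23 (SE; adjusted p = 6.71e-14 by limma), and was 224.2% of its XEN mean. Hhex and Eomes, which encode transcription factors, went from 4.49 ± 0.105 to 13.1 ± 4.55 TPM and from 1.66 ± 0.366 to 8.25 ± 1.19 TPM (SD, n = 3 each). Of 7 parietal endoderm genes 3 were higher and none was lower, with a median log2 change of 0.46, and all 7 were called lower than in XEN cells. For comparison, 25.1% of the genes tested were called against XEN cells, 10.4% lower and 14.7% higher at 48 h. Thbd, for thrombomodulin, was at 0.762 ± 0.0439 TPM at 48 h (SD, n = 3) and 170.9 ± 5.49 TPM in XEN cells (SD, n = 2). Plat, Stra6 and Pdpn likewise stood at 0.856%, 0.798% and 1.13% of their XEN means. Snai1, for a repressor of epithelial genes, was higher, at 21.5, 25.6 and 19.9 TPM against 3.60, 2.88 and 4.27 TPM (log2 change 2.35 ± 0.17 SE; adjusted p = 1.16e-09 by limma).

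A basement membrane was transcribed on a large scale. Of 13 genes for its components, 8 were higher and 2 lower, with a median log2 change of 2.50. Col4a1, for the alpha-1 chain of type IV collagen, was at 10.4, 11.2 and 12.0 TPM at 0 h and at 1004, 1117 and 758.9 TPM at 48 h, which was 85.6-fold higher (log2 change 6.28 ± 0.13 SE; adjusted p = 2.76e-17 by limma). Its neighbour Col4a2, for the partner chain, was 87.8-fold higher at 508.6 ± 85.2 TPM (SD, n = 3). Both were within the fold minimum of their XEN levels, at 84.0% and 98.3%. They were at 12.5% and 13.2% of their own means at 168 h of Dox. The laminin-111 genes moved together: Lama1 was 28.1-fold, Lamb1 27.9-fold and Lamc1 9.66-fold higher, at 948.9 ± 96.8, 822.9 ± 70.3 and 1018 ± 162 TPM (SD, n = 3 each). All 3 laminin genes were still at 26.6% to 29.4% of the XEN means. Sparc, a collagen-binding matricellular protein, was at 77.8, 63.6 and 153.4 TPM and then at 1789, 1857 and 1560 TPM, 17.7-fold higher.

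Not every component was higher. Lama5, for another laminin alpha chain, was at 62.4 ± 10.9 and 51.7 ± 2.39 TPM (SD, n = 3 each) and was not called (adjusted p = 0.201 by limma), nor was Nid2. Agrn, for the proteoglycan agrin, was at 55.2 and 108.5 TPM with groups that did not overlap (log2 difference 0.98; adjusted p = 1.33e-05 by limma) and missed only the fold minimum. It was called at 1.15 without 0 h replicate 3 and at 1.04 without 48 h replicate 3. Col18a1, for type XVIII collagen, fell from 147.8, 143.3 and 129.5 TPM to 21.9, 20.8 and 24.9 TPM, a log2 change of -2.59 ± 0.10 (SE; adjusted p = 6.64e-14 by limma). Fn1, for fibronectin, fell by 1.21 ± 0.19 on the log2 scale (SE; adjusted p = 2.02e-05 by limma).

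The enzymes and chaperones that modify and fold collagen were higher in 9 of 10 genes, with a median log2 change of 2.33, and Crtap, with a change of 0.66, was under the fold minimum. Serpinh1, the collagen chaperone HSP47, was at 40.3, 36.7 and 51.3 TPM at 0 h and 1853, 2017 and 1734 TPM at 48 h (43.7-fold; log2 change 5.43 ± 0.12 SE; adjusted p = 3.59e-17 by limma). The prolyl hydroxylase genes P4ha2 and P4ha1 were 26.2-fold and 11.9-fold higher, and the lysyl hydroxylase gene Plod2 10.4-fold. Plod2 was at 275.4, 279.0 and 206.9 TPM against 28.3, 27.7 and 16.9 TPM. Against XEN cells, 8 of the 10 were called lower, the exceptions being Serpinh1 at 58.3% and P4ha2 at 64.6% of the XEN mean.

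**Figure D3:**
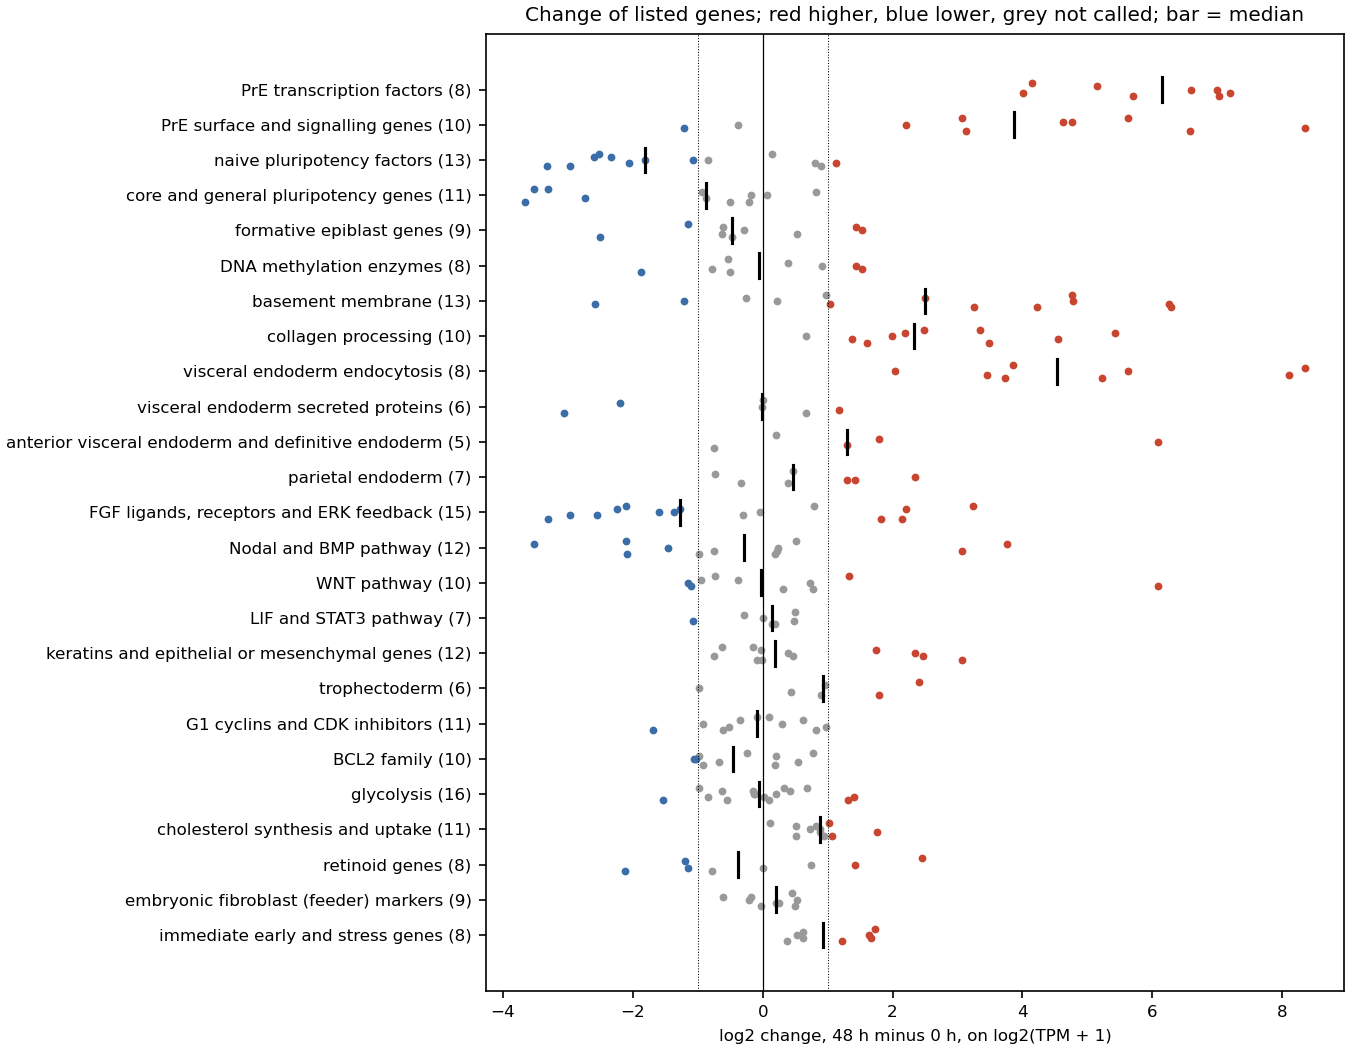
log2 change from 0 h to 48 h on log2(TPM + 1) for the tested genes of each list, with the number tested in parentheses; red points were called higher, blue points lower and grey points not called, black bars are list medians and dotted lines the fold minimum. PrE factors (median 6.15), endocytic genes (4.54) and PrE surface genes (3.88) lie to the right, and naive factors (-1.82) and FGF pathway genes (-1.27) to the left.

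Pluripotency genes differed widely in how much of them was left. Pou5f1 was at 1572, 1558 and 1833 TPM at 0 h and at 1151, 1141 and 1217 TPM at 48 h. The 48 h libraries were all beneath the 0 h libraries and averaged 70.7% of them. The log2 difference was -0.50 ± 0.25 (SE; adjusted p = 0.102 by limma in the fit over all 23 libraries of the induction series, and 6.09e-04 in a fit of the 6 libraries alone), and it was under the fold minimum in both fits. XEN cells held 0.202 ± 0.214 TPM (SD, n = 2). Between 24 h and 48 h the difference was -0.09 ± 0.25 (SE; adjusted p = 0.797 by limma).

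Of 11 core and general pluripotency genes, 4 were lower, none was higher and 7 were not called, with a median log2 change of -0.87. Sox2, whose product partners Oct4 on DNA, was at 341.4, 332.2 and 295.6 TPM at 0 h and 46.9, 41.9 and 54.2 TPM at 48 h, or 14.8% (log2 change -2.74 ± 0.20 SE; adjusted p = 9.34e-10 by limma). Tdgf1, the Nodal co-receptor Cripto, was left at 8.74% of its 0 h mean and Fgf4 at 9.10%. Foxd3, for a forkhead factor of the naive state, had nearly gone, from 13.5, 12.6 and 17.0 TPM to 0.163, 0.203 and 0.254 TPM. At the other end, Dppa5a, for an RNA-binding protein of early embryos, was at 6037, 6287 and 6165 TPM at 0 h and 4938, 5173 and 6242 TPM at 48 h, and its groups overlapped (adjusted p = 0.349 by limma). Sall4, for a zinc finger factor that PrE also uses, was at 104.6% of its 0 h mean (adjusted p = 0.613 by limma), and Lin28a, for a repressor of let-7 maturation, at 177.0% with a log2 difference of 0.83, under the fold minimum.

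Naive pluripotency factors were lower in 8 of 13 genes, higher in 1 and not called in 4, with a median log2 change of -1.82. Nanog was at 267.9, 278.4 and 298.1 TPM at 0 h and at 25.7, 21.2 and 36.5 TPM at 48 h, 9.88% of the 0 h mean (log2 change -3.33 ± 0.22 SE; adjusted p = 1.86e-10 by limma). Prdm14 and Nr5a2, for further factors of the naive network, were at 7.18% and 9.23% of their 0 h means, Klf2 at 16.2%, Nr0b1 at 20.3%, Esrrb at 23.9% and Zfp42 (Rex1) at 28.1%. Every library at 48 h was beneath every library at 0 h for these 7 genes, while over all genes tested 65.1% had groups that did not overlap. Tfcp2l1 was at 68.2, 65.1 and 87.5 TPM and then 29.9, 27.4 and 47.8 TPM. Its log2 change of -1.08 ± 0.27 (SE; adjusted p = 0.00184 by limma) lay close to the fold minimum, and was between -0.99 and -0.93 without 0 h replicate 3 or without 48 h replicate 1 or 2. Replicate 3 was the highest 48 h library for 10 of the 13 genes.

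The other 5 naive factors were not called lower. Klf4 was at 77.7, 73.7 and 75.5 TPM at 0 h and 82.3, 83.3 and 84.9 TPM at 48 h, against 88.4 ± 2.43 TPM in XEN cells (SD, n = 2). The 48 h libraries were above the 0 h libraries, with a log2 difference of 0.14 (adjusted p = 0.514 by limma). Klf5 was at 103.1, 98.9 and 118.9 TPM and then at 204.5, 202.1 and 192.7 TPM, with a log2 difference of 0.90 ± 0.09 (SE; adjusted p = 4.55e-08 by limma), under the fold minimum. Tbx3, whose product is also found in PrE, was higher by 1.12 ± 0.19 (SE; adjusted p = 4.43e-05 by limma), from 30.4, 31.9 and 54.5 TPM to 82.4, 85.1 and 81.2 TPM, and its change was 0.97 without 0 h replicate 1. Tcl1, an AKT co-activator, was at 64.7 ± 1.58 and 115.1 ± 20.6 TPM (SD, n = 3 each), a log2 difference of 0.81 that was under the fold minimum, and Dppa3, a maternal factor, at 109.9 ± 17.8 and 60.2 ± 6.17 TPM (SD, n = 3 each), a difference of -0.85 that was under it too.

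GATA factors bind DNA at the letters GATA in a preferred context, so promoter windows of RefSeq (GRCm38.p6), 250 bases before to 50 bases after each transcript start, were searched on both strands for the letters AGATAA or TGATAA and for the same with a final G. Windows were matched by symbol for 10240 of the 13766 genes tested. At least 1 match was found in 21.3% of these genes, in 23.1% of the 1063 higher genes with a window and in 24.2% of the 777 lower genes with a window. The windows of Dab2, which had the second largest rise among the named genes, at chr15:6299539-6299838 on the plus strand, and of Nr5a2, one of the naive factors that fell, at chr1:136960399-136960698 on the minus strand, are printed to show such matches on both sides of the comparison. Where a gene had several windows, the one with the most matches was printed. Capitals mark the matches, 2 in Dab2 and 3 in Nr5a2, read 5′ to 3′ in the direction of transcription. A match on the other strand appears as its reverse complement.
Dab2: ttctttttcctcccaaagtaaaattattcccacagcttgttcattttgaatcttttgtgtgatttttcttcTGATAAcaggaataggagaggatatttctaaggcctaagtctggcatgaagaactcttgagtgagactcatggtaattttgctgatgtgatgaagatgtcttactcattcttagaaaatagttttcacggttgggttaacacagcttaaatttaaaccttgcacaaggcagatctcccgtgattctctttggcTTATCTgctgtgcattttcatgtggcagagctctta
Nr5a2: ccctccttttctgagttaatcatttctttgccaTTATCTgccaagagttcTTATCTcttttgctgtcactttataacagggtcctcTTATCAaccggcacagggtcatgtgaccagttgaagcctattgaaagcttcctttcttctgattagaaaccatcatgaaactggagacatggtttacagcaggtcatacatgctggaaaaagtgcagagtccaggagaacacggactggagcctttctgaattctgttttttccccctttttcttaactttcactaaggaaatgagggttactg
A match is a description of these letters only, and binding was not measured here.

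Genes of the formative epiblast, the state that follows the naive state, did not move as a group: of 10, 9 were tested, 2 were higher and 2 lower, with a median log2 change of -0.47. Otx2, which encodes a factor that starts that state, fell from 10.6, 8.99 and 7.37 TPM to 0.833, 0.497 and 0.955 TPM (log2 change -2.50 ± 0.15 SE; adjusted p = 7.29e-11 by limma). Lef1 fell from 1.35 ± 0.758 to 0.0169 ± 0.0155 TPM (SD, n = 3 each), and Fgf5 was under 1 TPM in both groups. The 2 higher genes were those of the de novo DNA methyltransferases.

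Dnmt3a was at 37.7, 36.2 and 23.3 TPM at 0 h and at 103.5, 94.0 and 83.9 TPM at 48 h (log2 change 1.53 ± 0.16 SE; adjusted p = 8.64e-08 by limma). Dnmt3b was at 114.5, 112.2 and 118.5 TPM and then at 330.6, 321.4 and 291.3 TPM (log2 change 1.44 ± 0.20 SE; adjusted p = 5.92e-06 by limma). Both groups of libraries were well separated, yet both genes were already past a maximum: they had been at 214.2 and 500.5 TPM at 24 h, and fell from there to 48 h by 1.18 ± 0.16 and 0.67 ± 0.20 on the log2 scale (SE; adjusted p = 8.65e-06 and 0.0133 by limma). XEN cells held 4.70 and 22.7 TPM. Dnmt3l, their catalytically inactive cofactor, was at 448.6 ± 28.9 and 586.3 ± 32.8 TPM (SD, n = 3 each) and was not called, against 1.15 TPM in XEN cells. Tet1, which encodes the main methylcytosine dioxygenase of ES cells, fell to 27.0% of 0 h, from 160.9, 174.9 and 147.2 TPM to 45.4, 36.8 and 48.3 TPM (log2 change -1.87 ± 0.17 SE; adjusted p = 1.31e-08 by limma). Among the 8 DNA methylation genes listed, these were the 3 called, and the median log2 change was -0.06.

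The FGF pathway changed on the side of the ligand and of the receptors. Of 15 genes tested, 8 were lower and 4 higher, with a median log2 change of -1.27. Fgf4, the ligand, fell from 91.1, 90.6 and 73.6 TPM to 6.76, 6.83 and 9.63 TPM (log2 change -3.31 ± 0.22 SE; adjusted p = 3.45e-10 by limma), and Fgf15, another ligand, from 12.4 ± 2.86 to 0.701 ± 0.291 TPM (SD, n = 3 each). Among receptors, Fgfr1, the one that prevails in epiblast, fell from 30.0, 29.6 and 29.2 TPM to 10.4, 10.1 and 12.5 TPM. Fgfr2, the receptor that marks PrE, rose from 20.7, 18.0 and 8.95 TPM to 71.2, 68.3 and 79.5 TPM (4.60-fold; log2 change 2.21 ± 0.21 SE; adjusted p = 3.52e-08 by limma). TPM corrects for length, and on that scale the 2 receptors were in opposite order in the 2 groups: at 0 h every library had more Fgfr1 than Fgfr2 TPM, and at 48 h every library had more Fgfr2. Fgfr3 and Fgfr4 rose as well, from 0.843 ± 0.0103 to 16.8 ± 4.42 TPM and from 0.775 ± 0.318 to 5.34 ± 1.58 TPM (SD, n = 3 each). The Fgfr2 level was 915.1% of that in XEN cells, and 72 h libraries were lower than 48 h libraries by 0.61 on the log2 scale (adjusted p = 0.0318 by limma).

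Genes that ERK signalling turns on, several of which feed back to restrain it, were mixed, and some were lower. Etv5 and Etv4, for ETS factors, were at 20.5% and 32.3% of 0 h, Spred1 at 21.1%, Dusp6 at 15.2% and Spry4 at 39.7%. Dusp6 was at 37.9, 34.7 and 43.7 TPM at 0 h and 5.64, 4.38 and 7.65 TPM at 48 h (log2 change -2.55 ± 0.18 SE; adjusted p = 7.81e-10 by limma). Not all followed: Dusp4, for another ERK phosphatase, rose from 11.1 ± 0.652 to 53.3 ± 10.3 TPM (SD, n = 3 each), and Spry2 was at 97.8% of 0 h (adjusted p = 0.862 by limma). Spry1 was not called either, and Fos and Fosb, of the immediate early and stress list, were higher. Egr1, an immediate target, varied too widely for a call, at 36.1, 37.7 and 115.4 TPM and 74.4, 82.7 and 136.3 TPM.

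Nodal and BMP pathway genes were lower in 4 and higher in 2 of 12, with a median log2 change of -0.28. Nodal and Gdf3, for ligands of the activin branch, were at 21.6% and 22.1% of 0 h. Nodal was at 39.3, 39.5 and 30.5 TPM and then at 7.50, 6.48 and 9.59 TPM (log2 change -2.09 ± 0.17 SE; adjusted p = 6.30e-09 by limma). BMP ligand genes moved in both directions: Bmp6 reached 16.6, 17.1 and 15.7 TPM from 0.477 TPM or less, Bmp2 reached 9.03, 9.70 and 5.50 TPM from 0.101 TPM or less, and Bmp4 went from 22.2, 22.7 and 34.7 TPM to 13.2, 4.24 and 11.8 TPM. The call of Bmp4 was marginal (adjusted p = 0.0450 by limma) and was lost on leaving out any 0 h library or 48 h replicate 2. The Id genes, targets of BMP signalling, were not called. Lefty1 was at 41.5, 37.9 and 8.15 TPM at 0 h and was not called either (adjusted p = 0.0988 by limma), though without 0 h replicate 3 it was lower by 1.47 (adjusted p = 1.35e-05 by limma).

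WNT pathway genes were higher in 2 and lower in 2 of 10, with a median log2 change of -0.03. Besides Dkk1, Wls, for the carrier that WNT ligands need for secretion, rose from 3.28 ± 0.290 to 9.71 ± 0.833 TPM (SD, n = 3 each). The targets Lef1 and Sp5 fell from low levels, but Lef1 was under the fold minimum at -0.97 without 0 h replicate 2, and Sp5 at -0.999 without 0 h replicate 3. Axin2, another target, was at 3.59, 3.84 and 8.84 TPM and 8.27, 9.06 and 10.9 TPM and was under the fold minimum, but was called higher at 1.13 without 0 h replicate 3. In the LIF pathway, only Tfcp2l1 was called among 7 genes. Lifr, the LIF receptor gene, was at 36.9 ± 5.02 and 42.9 ± 9.58 TPM, and Stat3 at 41.7 ± 8.25 and 41.6 ± 1.08 TPM (SD, n = 3 each).

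Of 4 simple epithelial keratin genes, Krt8, Krt18 and Krt7 rose, and Krt19, at 5.44 and 6.88 TPM, was not called, nor were the genes of epithelial adhesion. Krt8 was at 9.09, 7.01 and 6.63 TPM at 0 h and 65.1, 77.4 and 68.2 TPM at 48 h (9.27-fold; log2 change 3.06 ± 0.10 SE; adjusted p = 1.07e-14 by limma), and its partner Krt18 was 6.11-fold higher. Cdh1, for E-cadherin, was at 141.8 ± 18.6 and 127.1 ± 6.50 TPM (SD, n = 3 each; adjusted p = 0.327 by limma), whereas XEN cells held 4.50 TPM. Vim, for vimentin, was at 104.7 ± 43.6 and 142.2 ± 49.0 TPM (SD, n = 3 each), against 1036 TPM in XEN cells. Of these 12 genes 4 were higher and none lower, with a median log2 change of 0.19.

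Of 7 mesoderm genes only Pdgfrb was tested and it was not called, 2 of 6 neural genes were tested and neither was called, and none of 8 genes of the 2-cell-like state reached 1 TPM. The mesoderm list summed to 3.03 to 3.46 TPM at 0 h and 3.01 to 4.38 TPM at 48 h, with Mesp1 and Msgn1 under 0.1 TPM in all 6 libraries. The trophectoderm list summed to 52.6 to 65.5 TPM at 0 h and 68.5 to 77.9 TPM at 48 h, so that each 48 h library was above the 0 h libraries. In that list Hand1 and Eomes were higher, Hand1 from 0.494 ± 0.195 to 6.91 ± 0.626 TPM (SD, n = 3 each), and the defining factors Cdx2, Elf5 and Gata3 were at 1.02, 0.0846 and 0.410 TPM at 48 h. Cdx2 had been at 0.0812 TPM, and its log2 difference of 0.89 was under the fold minimum but was called at 2.65 with a pseudocount of 0.1. Tead4, at 16.3 and 32.8 TPM, had a difference of 0.96 and was called at 1.04 without 48 h replicate 3. The part of such cells in the results was not tested.

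Among the called genes ranked by size, with groups that did not overlap and a mean of at least 5 TPM in a group, the largest rise on the log2 scale was that of Srgn, which encodes the proteoglycan core serglycin. It was at 0.264, 0.294 and 0.0913 TPM at 0 h and at 685.6, 754.3 and 577.0 TPM at 48 h (log2 change 9.11 ± 0.31 SE; adjusted p = 4.20e-14 by limma), close to the 609.3 TPM of XEN cells. The other 9 were Dab2, Cubn, Gata4, Gata6, Sox17, Foxq1, Pdgfra, Nostrin and Col4a1. Nostrin, for a protein that moves nitric oxide synthase within cells, was listed at 0, 0.0102 and 0 TPM at 0 h and at 77.6, 85.7 and 85.7 TPM at 48 h, against 0.460 TPM in XEN cells.

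By gain in TPM the order was led by Fabp3, which encodes a fatty acid-binding protein. Fabp3 went from 231.6, 232.9 and 131.6 TPM to 2003, 2199 and 2188 TPM, 10.7-fold higher (log2 change 3.46 ± 0.17 SE; adjusted p = 5.39e-12 by limma), and was followed by Serpinh1, Sparc, Col4a1, Apoe, Lama1, Lamc1, Ctsl, Lrpap1 and Lamb1. Of these 10 genes, 5 encode basement membrane components and 1 the chaperone that folds their collagen.

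The largest falls on the log2 scale were led by a lincRNA and a hormone gene. Gm28625, the lincRNA, on chromosome 9 (mm10, 84890545 to 84890749), was at 247.9, 133.7 and 112.0 TPM at 0 h and listed at 0 TPM in all 48 h libraries. Its 0 h libraries were widely spread. Trh, for the thyrotropin-releasing hormone precursor, was steadier, at 264.8, 286.7 and 295.8 TPM and then at 7.06, 4.71 and 5.77 TPM, 2.07% of 0 h (log2 change -5.38 ± 0.24 SE; adjusted p = 1.01e-12 by limma). The lincRNAs Halr1 and Gm46332 were left at 2.77% and 3.39% of 0 h. Fgf17, a further FGF ligand outside the list, fell from 35.5, 35.2 and 35.1 TPM to 0.792, 1.24 and 1.52 TPM, and Slc7a3, for a carrier of basic amino acids, from 145.0 ± 16.5 to 8.40 ± 0.838 TPM (SD, n = 3 each). Accsl, Cobl, Morc1 and Enox1 completed the 10, at 1.03% to 5.27% of 0 h.

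The largest losses in TPM among called genes were of abundant transcripts. Mt2, for a metal-binding metallothionein, was at 2844, 2675 and 2918 TPM at 0 h and 1127, 1171 and 1502 TPM at 48 h, 45.0% of 0 h. Sod1, for superoxide dismutase, was at 48.8%, with a log2 change of -1.03 close to the fold minimum. Ifitm1, Ifitm2 and Ifitm3, neighbouring genes for membrane proteins that block virus entry, were at 13.4%, 37.3% and 19.9% of 0 h, with the reservation that similar family members can share reads. Chchd10, for a mitochondrial protein, went from 888.8, 810.5 and 764.2 TPM to 160.5, 138.7 and 191.7 TPM, and Tmsb4x, for an actin-binding thymosin, from 930.8 ± 24.5 to 228.7 ± 22.2 TPM (SD, n = 3 each). Trim28, for a corepressor that silences retroelements, was at 47.0%, Gsta4 at 21.3% and Spp1 at 41.2% of 0 h.

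To place 48 h among the other times, 12 genes were followed through the series. Gata6 had means of 136.8, 163.8 and 194.9 TPM at 24, 48 and 72 h. Each step was 0.25 or 0.26 on the log2 scale, under the fold minimum, with an adjusted p of 0.0251 from 24 h to 48 h and 0.0307 from 48 h to 72 h by limma. Cubn and Pth1r were on their steepest part, with Cubn at 8.96, 298.3 and 558.9 TPM at the same times and Pth1r at 4.62, 78.6 and 284.0 TPM. Cyp51, for a sterol demethylase, was highest at 48 h, where it was at 76.2, 79.4 and 97.9 TPM. It was lower at 24 h, at 32.7 TPM, and again at 72 h, at 49.2 TPM (log2 difference of 72 h from 48 h -0.76; adjusted p = 4.00e-05 by limma). Thbd was at 2.25 TPM at 72 h and reached 167.0 TPM at 168 h.

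**Figure D4:**
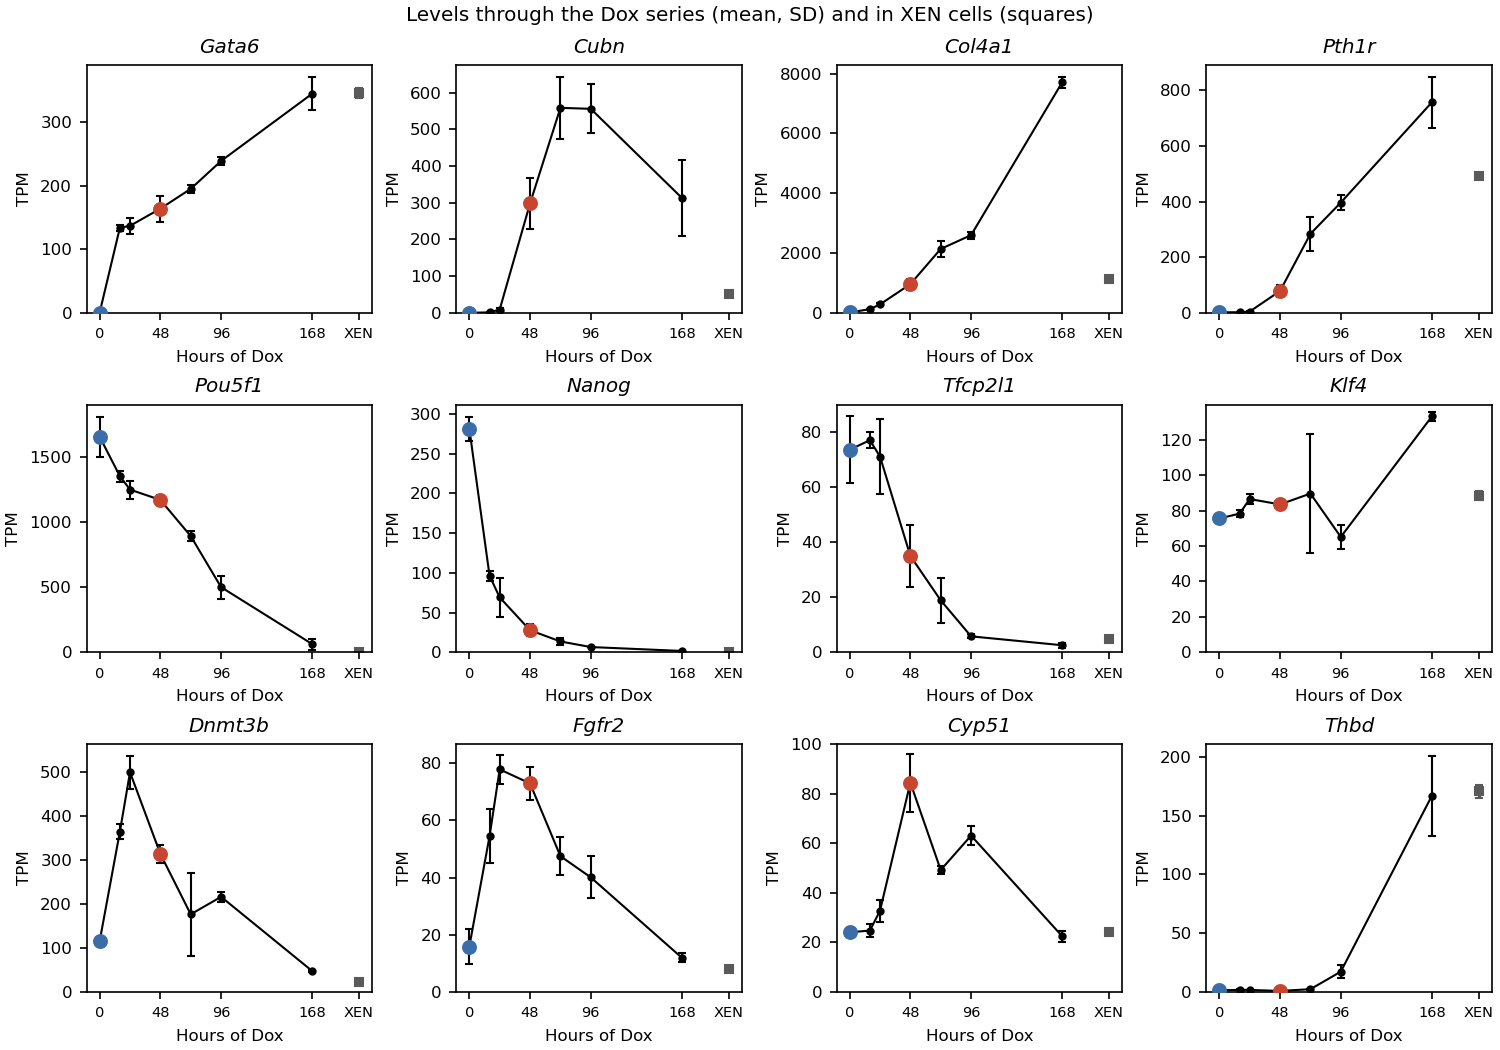
TPM (mean, with SD bars; 3 libraries per time) of 12 genes against hours of Dox, with the 0 h and 48 h means enlarged in blue and red and XEN cells (2 libraries) as grey squares at the right; each panel has its own axis. Gata6 rises by steps under the fold minimum between 24 and 72 h. At 48 h, Cubn and Pth1r are in mid-rise and Dnmt3b, Fgfr2 and Cyp51 stand at or past a maximum. Pou5f1 is then at 70.7% of its 0 h mean while Nanog is at 9.88%.

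The same time point was sampled in the 6 siCTL libraries, whose table is limited to genes that the authors had called responsive and was processed on its own, so levels are given side by side with no test. Pou5f1 was at 781.8 to 1194 TPM there (median 895.5), Gata6 at 92.6 to 198.5 TPM (median 110.4) and Gata4 at 183.9 to 399.6 TPM (median 225.8). Oct4 and GATA transcripts thus stood together in the 3 libraries of the induction series at 48 h and in the 6 siCTL libraries. Some other pluripotency genes were lower in siCTL. Sox2 was at 2.87 to 33.8 TPM there (median 5.94) against 41.9 to 54.2 TPM, and Nanog at 2.53 to 30.7 TPM (median 9.08) against 21.2 to 36.5 TPM. Others were at like levels or above: Zfp42 was at 68.7 to 102.6 TPM against 80.5 to 84.0 TPM, and Dppa5a at 5822 to 13076 TPM against 4938 to 6242 TPM. The libraries with siOct4 at the same time were not used here. Sox17 was at 35.6 to 66.3 TPM in siCTL and 130.7 to 166.6 TPM at 48 h of the induction series, and Amn at 16.1 to 58.4 and 183.8 to 230.8 TPM. Srgn was at 1115 to 1777 TPM in siCTL and 577.0 to 754.3 TPM at 48 h of the induction series.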

How the data were processed

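Libraries were grouped by sample title. Per the study's methods, the authors made stranded polyA libraries from 3 independent replicates per time, mapped them to mm10 using STAR, obtained gene values using RSEM, omitted outliers by principal component analysis (of what is not stated), and deposited TPM. Tool versions and the annotation are not given in the sources used here. TPM keep no read numbers, so depth is unknown. The p-values rest on the spread within groups over all 23 libraries of the induction series. The other times and XEN cells thus enter that spread beside the 0 h and 48 h libraries. The authors' columns of response classes and siOct4 effects were not used. Some listed genes are not reported here by name.

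Of 44915 rows, the highest was kept for each of 60 repeated symbols. The test was limma 3.58.1 (R 4.3.3; moderated variances with a trend and robust estimation) on log2(TPM + 1), with 1 coefficient per group over 23 libraries, for genes averaging 1 TPM or more at 0 h or 48 h. Calls needed a Benjamini-Hochberg adjusted p under 0.05 over all genes and a log2 change above 1 in size. The fit was tested on simulated data. Named genes were those of the lists and, among called genes whose groups did not overlap and that averaged 5 TPM or more in a group, the leading rises and falls in log2 and in TPM. The comparison, lists and rules were chosen with earlier results of these data known. Positions are from GENCODE M21 (mm10). Python 3.11.15, pandas 2.3.3, numpy 2.4.6 and matplotlib 3.10.9 made the summaries and figures.

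The alternatives were a fit of 6 libraries alone, the replicate block, median-of-ratios rescaling, a pseudocount of 0.1, no filter, a minimum of 5 TPM, no fold minimum, an adjusted p under 0.01 and each library left out. Leaving out replicate 3 of both groups was added after seeing the data.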

Additional observations from a re-analysis of the deposited data

Results flagged for a closer look

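In the 6 siCTL libraries, which were also taken at 48 h of Dox, 37 genes of the PrE and pluripotency lists were screened with Dixon's rule for a library that stands apart from the other 5. It was met by 8 genes. Chance would give about 1.85 at 1 in 20 if the genes were independent, which genes measured in the same 6 libraries are not. The higher values were all in siCTL library 4. Gata6 was at 198.5 TPM there against 92.6 to 111.9 TPM in the others, Sox17 at 66.3 against 35.6 to 43.5 TPM, and Sox7 at 183.8 against 50.8 to 61.9 TPM. Hnf4a was at 17.2 against 3.44 to 4.98 TPM. Dab2, the endocytic adaptor, was at 1732 against 537.7 to 829.5 TPM, and Fst, the activin antagonist, at 28.1 against 8.95 to 12.3 TPM. The receptor genes Pdgfra and Fgfr2 were low in siCTL library 3, at 103.2 against 194.8 to 274.1 TPM and at 26.2 against 86.0 to 142.9 TPM.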

How the results depend on the processing

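The 1376 higher and 1095 lower genes stayed within 1.5 times of these counts under each alternative run other than dropping the fold minimum, which gave 8010 genes, 4075 higher and 3935 lower. Leaving out 1 library gave 2378 to 2590 genes in all, 1330 to 1454 higher and 1048 to 1177 lower, and leaving out replicate 3 of both groups gave 2639. The labels give the same replicate numbers in both groups, but libraries sharing a number deviated from the means of their groups with correlations of -0.06, -0.01 and 0.08, so the numbers were not taken as pairs. With the replicate block, 2474 genes were called, 1375 higher and 1099 lower, and no call of a named gene changed. A pseudocount of 0.1 gave 1766 higher and 1503 lower genes, and median-of-ratios rescaling 1327 and 1142, with the median change of all genes at -0.04 and 53.7% of calls higher in place of 55.7%. The Pou5f1 difference of -0.50 was the same in a fit of the 6 libraries alone, where its SE was smaller and its adjusted p by limma was 6.09e-04 in place of 0.102.

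Of 250 named genes tested, 215 kept their call under each alternative that tested them, 35 lost or gained one and none reversed. Those close to the fold minimum included Nid1 at 0.98 without 0 h replicate 2, Insig1 at 1.00 after rescaling, and Trim28 and Sod1 at -0.98 without 0 h replicate 3. The counts of the PrE factors, endocytic genes and collagen processing genes were the same without replicate 3 of both groups. With those libraries left out, higher calls went from 1 to 2 among naive factors and from 0 to 1 among core pluripotency genes. They went from 1 to 0 among visceral endoderm secreted proteins and from 3 to 2 among cholesterol genes. Lower calls went from 8 to 9 among naive factors, from 2 to 4 in the BCL2 family and from 1 to 2 in glycolysis. They went from 0 to 1 among trophectoderm genes and among anterior visceral and definitive endoderm genes. The basement membrane, WNT and trophectoderm lists each gained 1 higher call, and the Nodal and BMP list 1 lower call. The reads behind each TPM are unknown, so no limit of detection is given.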

Other observations

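Some sterol and stress genes were also higher at 48 h. Of 11 cholesterol synthesis and uptake genes, 3 were higher and none lower, with a median log2 change of 0.88. Each of the 11 had groups that did not overlap, but so did 65.1% of all genes tested. Of all genes tested, 18.0% were called higher or lower. Cyp51 was at 24.0 ± 0.307 and 84.5 ± 11.7 TPM (SD, n = 3 each), a log2 change of 1.76 ± 0.11 (SE; adjusted p = 6.50e-11 by limma). Lss, for lanosterol synthase, was at 20.7 ± 2.01 and 44.2 ± 3.15 TPM, and Insig1, for a protein that holds back the activator of sterol genes, at 45.3 ± 3.63 and 93.2 ± 4.36 TPM (SD, n = 3 each). Both calls rested on single libraries, since Lss was under the fold minimum at 0.99 without 0 h replicate 2, and Insig1 at 0.97 without 0 h replicate 3 and at 0.99 without 48 h replicate 2. Compared with XEN cells, 9 of the 11 were called higher at 48 h. Among 8 immediate early and stress genes, Fos, Fosb, Jun and Atf3 were higher, and the heat shock genes Hspa1a and Hspa1b were not called and overlapped between the groups. Fosb was at 23.6, 20.8 and 30.9 TPM and then at 66.8, 83.6 and 95.1 TPM.

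Genes of retinoid handling moved in both directions: of 8 tested, 2 were higher and 3 lower. Cyp26a1, for the enzyme that degrades retinoic acid, was at 0.156 ± 0.102 and 5.38 ± 1.32 TPM (SD, n = 3 each), and Crabp1, for a retinoic acid carrier, fell from 29.1, 28.0 and 31.9 TPM to 5.31, 5.77 and 7.13 TPM. In glycolysis, 13 of 16 genes were not called, and the 18.75% called were close to the 18.0% of all genes tested. Slc2a3, for a glucose transporter, was at 345.6, 332.2 and 297.9 TPM and then at 853.5, 858.1 and 887.6 TPM (log2 change 1.41 ± 0.18 SE; adjusted p = 1.79e-06 by limma), Pfkl rose 2.48-fold in mean TPM, and Pdk1, for a kinase that inhibits pyruvate dehydrogenase, was at 34.0% of 0 h. Among 11 G1 cyclins and CDK inhibitors the 1 call was Ccnd1, for cyclin D1, at 82.9, 80.3 and 104.2 TPM and then at 29.8, 27.9 and 23.1 TPM. In the BCL2 family, 2 of 10 genes tested were called, a share of 20.0% that was close to the 18.0% of all genes tested. They were Bid and Bcl2l11, both for pro-apoptotic proteins, which were lower by 1.02 and 1.05 on the log2 scale. Both were at -0.97 and under the fold minimum without 0 h replicate 1, and Bcl2l11 was at -0.96 without 48 h replicate 2.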
